A study of Homo sapiens with 6 samples.

Results

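The genes of fatty acid synthesis and desaturation were followed in HEK293 cells treated with GSK-A1, an inhibitor of phosphatidylinositol 4-kinase alpha. The group was set by name, with earlier results of these data known. Its members were the transcription factor gene SREBF1 and 9 genes of the pathway it controls (SCD, FASN, ACACA, ACLY, ACSS2, ELOVL6, FADS1, FADS2 and MID1IP1). All 10 symbols matched a row of the deposited table, which listed 63140 genes, and 9 of the 10 passed the filter on low counts. The study held 3 libraries of cells that received the solvent dimethyl sulfoxide (DMSO) and 3 of cells that received GSK-A1 at 100 nM, both for 24 h. HEK293 is an established human cell line of embryonic kidney origin, so each group is a set of cultures of 1 line, grown in medium with fetal bovine serum and treated when confluent. Phosphatidylinositol 4-kinase alpha makes phosphatidylinositol 4-phosphate at the plasma membrane.

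Fatty acids are built in the cytosol from acetyl-CoA. ATP citrate lyase and acetyl-CoA synthetase supply the acetyl-CoA, acetyl-CoA carboxylase turns it into malonyl-CoA, and fatty acid synthase joins these units into palmitate, which elongases lengthen and desaturases give double bonds. SREBP-1, the product of SREBF1, is made as a membrane protein of the endoplasmic reticulum, is cut in the Golgi when it is released for transport, and then activates these genes and its own gene in the nucleus.

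Total counts ranged from 33040178 to 47777233 per library, and 16754 genes were tested. GSK-A1 replicate 2 stood apart from the other treated libraries. Its chi-square statistic per gene was 10.98 against GSK-A1 replicate 1 and 15.5 against replicate 3, compared with 2.88 for replicates 1 and 3 and with 1.84 to 3.14 among DMSO libraries. Markers of HEK293 cells (NEFL, NEFM, VIM, KRT8 and KRT18) summed to between 2019 and 2092 CPM (counts scaled to the library total) with DMSO and between 2166 and 2358 CPM with GSK-A1. NEFM, a marker this line is known for, was listed at only 0.0604 to 0.381 CPM. Markers of 5 other cell types, with 4 genes each, summed to at most 7.79 CPM for any type in any library, and TTR, LEP and COL1A2 were at 0 throughout. The adipocyte sum (ADIPOQ, PLIN1, FABP4 and LEP), the type closest to fat synthesis, was 1.57 to 1.71 CPM with DMSO and 2.06 to 2.52 CPM with GSK-A1. Nearly all of that sum was PLIN1, at 1.54 to 1.69 CPM with DMSO and 2.02 to 2.46 CPM with GSK-A1. ADIPOQ, FABP4 and LEP each stood at no more than 0.0429 CPM in any library, so the higher sum is that of 1 gene. The part of these marker differences in the results below was not tested.

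The starts of these genes are shown first. The motifs marked in them were chosen after the windows had been seen, and a link between motifs and changes was not tested. RefSeq (build GRCh38.p14) gave windows for 9 of the 10 genes, 14 in all, and FASN had no entry. The 250 bases before a start are printed 5′ to 3′ on the gene's strand for 3 genes that fell with GSK-A1 and for ELOVL6, which was not called. Capitals mark ATCACCC (the core of a sterol regulatory element, the SREBP binding site), CCAAT (bound by NF-Y), CACGTG (an E-box) and GGGCGG (a GC box, bound by Sp1), on either strand. The windows are chr10:100346983-100347232 on the plus strand for SCD, chr17:17836987-17837236 on the minus strand for SREBF1, chr17:41918952-41919201 on the minus strand for ACLY and chr4:110198616-110198865 on the minus strand for ELOVL6.
SCD: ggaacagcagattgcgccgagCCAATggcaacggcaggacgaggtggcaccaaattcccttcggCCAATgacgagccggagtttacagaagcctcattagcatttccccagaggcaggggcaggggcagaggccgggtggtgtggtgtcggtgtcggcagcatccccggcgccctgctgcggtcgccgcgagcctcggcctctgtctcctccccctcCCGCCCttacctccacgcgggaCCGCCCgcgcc
SREBF1: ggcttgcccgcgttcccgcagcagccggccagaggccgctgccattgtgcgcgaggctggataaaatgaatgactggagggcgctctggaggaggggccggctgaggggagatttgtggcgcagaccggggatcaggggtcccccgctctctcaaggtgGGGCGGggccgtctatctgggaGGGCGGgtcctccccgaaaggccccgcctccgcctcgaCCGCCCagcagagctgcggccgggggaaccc
ACLY: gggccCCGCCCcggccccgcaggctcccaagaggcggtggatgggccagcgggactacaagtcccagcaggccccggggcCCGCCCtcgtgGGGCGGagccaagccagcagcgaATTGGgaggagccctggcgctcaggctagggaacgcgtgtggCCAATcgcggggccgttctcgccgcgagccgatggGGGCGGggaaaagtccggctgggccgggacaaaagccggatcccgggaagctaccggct
ELOVL6: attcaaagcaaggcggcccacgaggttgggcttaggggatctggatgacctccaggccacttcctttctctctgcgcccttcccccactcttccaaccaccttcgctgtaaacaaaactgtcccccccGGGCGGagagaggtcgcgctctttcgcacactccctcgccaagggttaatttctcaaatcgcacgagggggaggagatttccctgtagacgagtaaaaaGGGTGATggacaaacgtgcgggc

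The ATCACCC core occurred in the windows of ELOVL6, 23 bases before the start, and MID1IP1, 37 bases before it, and in none of the other members' windows. Over all 35116 windows of this length, 2.07% held it. SCD had 2 CCAAT boxes, at 229 and 186 bases before its start, and ACLY had 2, at 136 and 94 bases in the window printed. Among genes that were not called, ACACA had CCAAT boxes at 155 and 136 bases in its first window and at 226 bases in its second, and ELOVL6, FADS1 and FADS2 had none. ACSS2, which fell, had 1 CCAAT box at 123 bases in its first window and none in its second. MID1IP1, which was not tested, had 1 at 65 bases. CCAAT occurred in 32.0% of all windows. SREBF1 had no CCAAT box and 3 GC boxes, a motif found in 42.6% of all windows. By window, the other fallen genes with an entry had GC boxes too (SCD 2, ACLY 4 and 3, ACSS2 1 and 3). So did genes that were not called (ACACA 0, 6 and 5, FADS1 2, ELOVL6 1, FADS2 0 and 1). CACGTG occurred in no member's window and in 6.34% of all. These matches describe letters in 1 window, and a gene may have starts and control regions outside it.

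Levels were first compared between genes per length, as RPKM (CPM divided by exon length in kilobases), using the joined exons of each gene in GENCODE release 29. With DMSO the order ran from FASN (216 ± 2.07 RPKM) through SCD (194 ± 2.48), ACLY (147 ± 1.20), ACACA (14.3 ± 0.18), ELOVL6 (5.91 ± 0.21), ACSS2 (3.72 ± 0.037), SREBF1 (2.58 ± 0.17) and FADS1 (2.17 ± 0.079) to FADS2 (0.608 ± 0.070; SD, n = 3). No neighbours in this order overlapped between their DMSO libraries. Fatty acid synthase, stearoyl-CoA desaturase and ATP citrate lyase thus formed a top group, and ACLY stood 10.3-fold above ACACA. With GSK-A1 the order was the same except for 1 exchange. SREBF1 stood at 1.83, 1.88 and 2.16 RPKM in GSK-A1 replicates 1 to 3, now below FADS1 at 2.38, 2.44 and 2.18 RPKM. The exchange depends on the joined exon lengths, 8030 bases for SREBF1 and 10230 for FADS1, which take in the exons of all listed transcripts. In CPM, FADS1 stood above SREBF1 under DMSO too (means of 22.2 and 20.7 CPM).

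**Figure D1:**
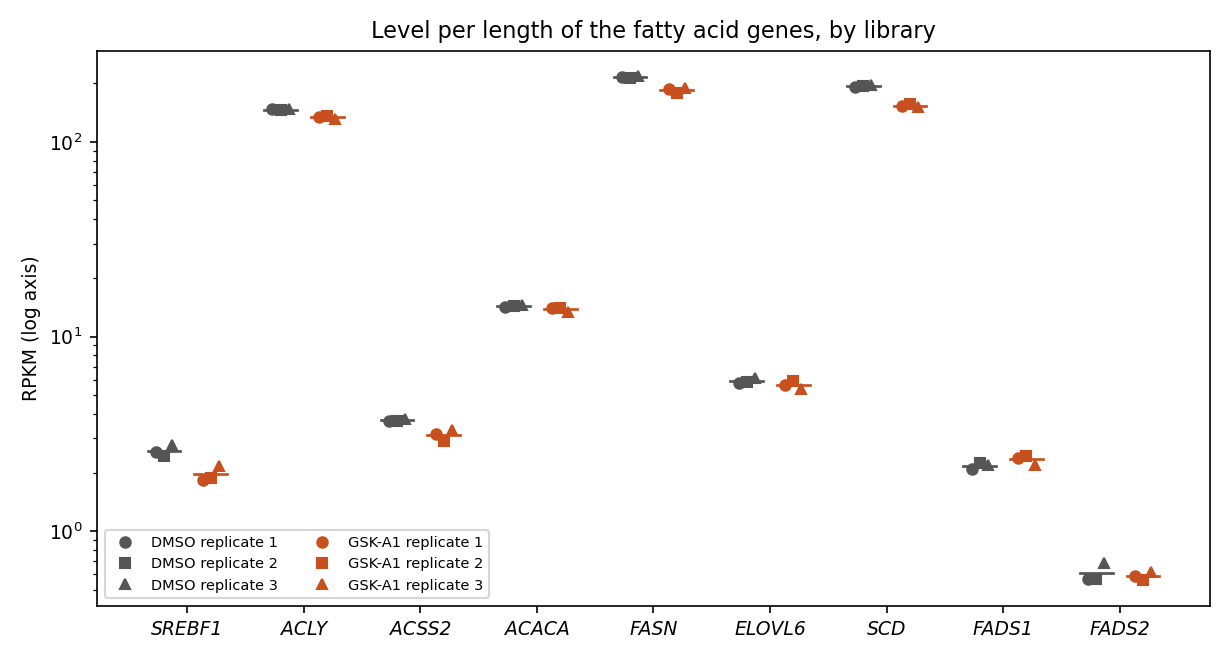
Level per length of each tested gene in each library, in RPKM on a log axis. Points are libraries, grey for DMSO and orange for GSK-A1, and short lines are group means. FASN, SCD and ACLY lie above 100 RPKM and FADS2 below 1, and SREBF1 and FADS1 exchange places between the groups.

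Of the 9 genes tested, 5 fell with GSK-A1 and none rose (SREBF1, SCD, FASN, ACSS2 and ACLY; edgeR quasi-likelihood test, adjusted p under 0.05 over all genes tested). Among all genes tested, 22.9% were called in either direction, 10.9% lower and 12.0% higher. ACLY fell by 8.90% and SREBF1 by 24.0%, the ends of the range. The median log2 fold change of the 9 was -0.13, against -0.01 over all genes tested. In 6 of the 9 the groups did not overlap, as in 40.5% of all genes tested. The same 5 calls were made in each fit that left out 1 library. In bulk RNA, fewer cells of a type and less RNA per cell cannot be told apart.

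SREBF1 (ENSG00000072310; chr17:17810399-17837002, minus strand, GRCh38, GENCODE 29) encodes SREBP-1, the regulator of the group. In the order of replicates 1 to 3, as for every gene below, it stood at 20.4, 19.5 and 22.1 CPM with DMSO and at 14.7, 15.1 and 17.3 CPM with GSK-A1. All treated libraries lay below all controls, and replicate 3 was the highest of both groups. It changed by -0.40 ± 0.07 on the log2 scale (SE throughout; edgeR adjusted p = 8.63e-04), the largest fall in size among the 9. Counts per gene do not separate the transcripts of SREBP-1a and SREBP-1c. RAI1, which runs on the other strand, shares 6.92% of the SREBF1 exonic bases, and the strand setting of the counting is not given in the sources used here. The fits without 1 library and the other alternatives ranged from -0.47 to -0.32.

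Transcripts of both enzymes that supply acetyl-CoA fell. ACLY (ENSG00000131473; chr17:41866908-41930542, minus strand) encodes ATP citrate lyase, which splits citrate exported from mitochondria. It stood at 772, 759 and 766 CPM with DMSO and at 701, 706 and 685 CPM with GSK-A1. The groups did not overlap, and the fall was small but tight (-0.13 ± 0.03, edgeR adjusted p = 0.00505). ACSS2 (ENSG00000131069; chr20:34872146-34927962, plus strand) encodes the cytosolic and nuclear enzyme that activates acetate. It stood at 19.9, 19.9 and 20.2 CPM with DMSO and at 17.1, 15.6 and 17.9 CPM with GSK-A1. Here the treated libraries varied more than the controls, with GSK-A1 replicate 2 the lowest (-0.25 ± 0.06, edgeR adjusted p = 0.00812). Without that library the change was -0.19 (edgeR adjusted p = 0.00638).

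At carboxylation and chain synthesis, FASN was called and ACACA was not. ACACA (ENSG00000278540; chr17:37084988-37406818, minus strand), acetyl-CoA carboxylase alpha, which makes the malonyl-CoA used for each added unit, stood at 183.4, 187.3 and 187.9 CPM with DMSO and at 182.5, 182.6 and 174.0 CPM with GSK-A1. The groups were separated by less than 1 CPM, and the gene was not called (-0.05 ± 0.04, edgeR adjusted p = 0.331, interval of 2 SE from -0.12 to 0.02). Its change was -0.0247 without GSK-A1 replicate 3 and -0.0920 under upper-quartile factors. FASN (ENSG00000169710; chr17:82078333-82098332, minus strand), fatty acid synthase, stood at 2027, 2005 and 2043 CPM with DMSO and at 1759, 1663 and 1771 CPM with GSK-A1. Every treated library lay below every control, and GSK-A1 replicate 2 was again the lowest. Its change was -0.23 ± 0.03 (edgeR adjusted p = 1.03e-04), so the gene fell by 14.5%. Leaving out that library gave -0.19 (edgeR adjusted p = 2.05e-08). The FASN transcript is rich in G and C (65.3% of bases in the longest one). Removing the GC trend of each library, a setting chosen after seeing the data, gave FASN -0.15. The intervals of 2 SE for ACACA and FASN (-0.29 to -0.16) did not overlap, and the difference between these genes was not tested.

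MID1IP1 (ENSG00000165175; chrX:38801432-38806537, plus strand), whose protein promotes the polymerisation and activity of acetyl-CoA carboxylase, was the member that could not be tested. Its row held 1 read, in DMSO replicate 2, and 0 in the other libraries, where a count of 0 allows up to 0.0905 CPM in the shallowest library (3 counts, counting error only). THRSP, its paralog, held 3 reads over the 6 libraries. With NEFM also listed near 0, these values are given as listed and not as absence of the transcripts.

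**Figure D2:**
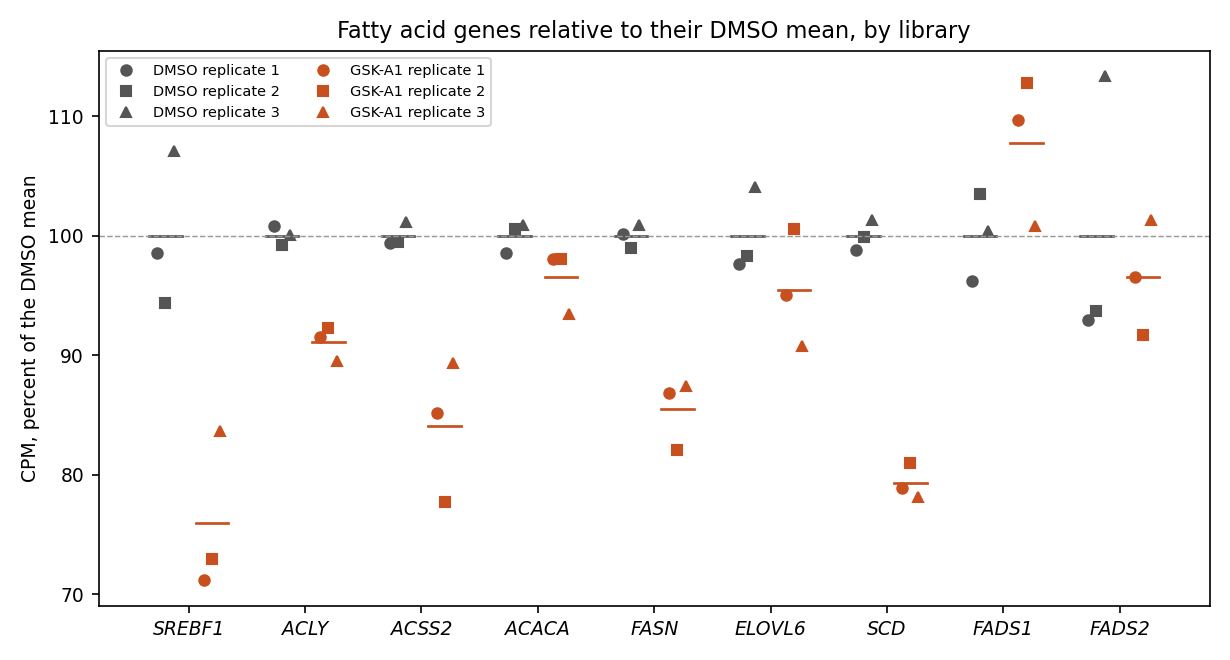
CPM of each tested gene in each library, as a percentage of that gene's mean over the DMSO libraries (dashed line at 100). Points are libraries and short lines are group means. The treated libraries of SREBF1, ACLY, ACSS2, FASN and SCD lie below all their controls, as do those of ACACA by a narrow margin, and those of ELOVL6, FADS1 and FADS2 overlap their controls.

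Among the members that lengthen and desaturate fatty acids, SCD was called and ELOVL6, FADS1 and FADS2 were not. SCD (ENSG00000099194; chr10:100347124-100364834, plus strand) encodes stearoyl-CoA desaturase, which puts the first double bond into palmitate and stearate. It stood at 1025, 1037 and 1052 CPM with DMSO and at 819, 841 and 811 CPM with GSK-A1. Both groups were tight, and they lay far apart relative to their spread. Its change was -0.33 ± 0.03 (edgeR adjusted p = 1.78e-06), so the gene fell by 20.6%. By p-value SCD ranked 55 of the 16754 genes tested, ahead of FASN at 259, SREBF1 at 626, ACLY at 1416 and ACSS2 at 1728.

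ELOVL6 (ENSG00000170522; chr4:110045846-110199199, minus strand) encodes the elongase that lengthens palmitate to stearate. It stood at 42.1, 42.4 and 44.8 CPM with DMSO and at 40.96, 43.4 and 39.1 CPM with GSK-A1. The groups overlapped, and the change of -0.07 ± 0.05 was not called (edgeR adjusted p = 0.366, interval -0.17 to 0.03). Removing the GC trend brought it to -0.11, with an edgeR adjusted p of 0.0499. It was -0.0374 without DMSO replicate 3, -0.107 under upper-quartile factors and -0.0284 when GSK-A1 replicate 3 was left out. The FADS genes lie side by side on chromosome 11 and encode the desaturases of polyunsaturated fatty acids, delta-5 for FADS1 and delta-6 for FADS2. FADS1 (ENSG00000149485; chr11:61799625-61829318, minus strand) stood at 21.3, 22.9 and 22.2 CPM with DMSO and at 24.3, 24.99 and 22.3 CPM with GSK-A1. It was the only tested member with a positive change, which was not called (0.11 ± 0.06, edgeR adjusted p = 0.188, interval -0.0068 to 0.22). Over the alternatives the change of FADS1 ran from 0.0677 to 0.156.

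FADS2 (ENSG00000134824; chr11:61792980-61867354, plus strand) was the least abundant of the 9, at 6.24, 6.29 and 7.60 CPM with DMSO and at 6.48, 6.15 and 6.80 CPM with GSK-A1. Its groups overlapped throughout (-0.04 ± 0.09, edgeR adjusted p = 0.820, interval -0.22 to 0.15), and its sign turned under 3 alternatives. FADS1 and FADS2 overlap on opposite strands over 4.79% of the exonic length of FADS1 and 4.44% of that of FADS2. FEN1, on the same strand as FADS2, shares 0.444% of the exonic length of FADS2. It held 26837 reads over all libraries, against 1594 for FADS2, and its part in the FADS2 counts was not tested. The interval for FADS2 includes falls as large as that of ACLY, so a change of that size could not be told from none.

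**Figure D3:**
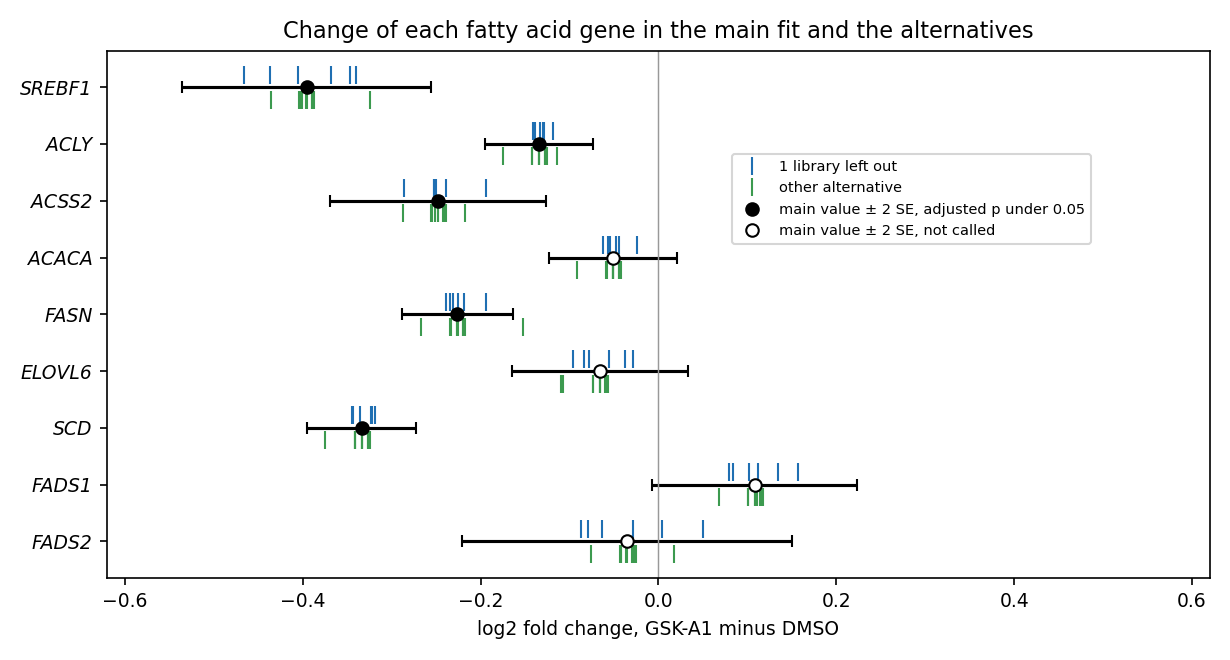
Log2 fold change (GSK-A1 minus DMSO) of each tested gene. Circles are the main values with bars of 2 SE, filled where the adjusted p was under 0.05. Blue ticks are fits without 1 library and green ticks the other alternatives. The ticks of SREBF1, ACLY, ACSS2, FASN and SCD all lie below 0, and those of FADS2 lie on both sides of it.

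To see whether neighbouring steps or paralogs moved by different amounts, the log2 ratio of CPM was compared in 5 pairs, by exact two-sided permutation tests in which 3 against 3 libraries allow no p below 0.1. SCD relative to SCD5, its paralog, went from 4.60 ± 0.036 under DMSO to 4.32 ± 0.0080 under GSK-A1 (SD, n = 3), which differ by -0.28 (exact p = 0.1, adjusted p = 0.167 over the 5 pairs). SCD5 itself stood at 43.3, 42.9 and 42.3 CPM with DMSO and at 40.7, 42.2 and 40.6 CPM with GSK-A1 and was not called (-0.06 ± 0.04, edgeR adjusted p = 0.371). SREBF1 relative to SREBF2, which encodes the SREBP of cholesterol genes, differed by -0.33 (exact p = 0.1, adjusted p = 0.167), from -4.03 ± 0.095 to -4.36 ± 0.12. SREBF2 stood at 328, 342 and 341 CPM with DMSO and at 328, 313 and 326 CPM with GSK-A1 and was not called (-0.06 ± 0.03, edgeR adjusted p = 0.195), though it was under upper-quartile factors (-0.11 (edgeR adjusted p = 0.0408)). SCD relative to FASN differed by -0.11 (exact p = 0.1, adjusted p = 0.167), with DMSO replicate 1 (-0.983459) almost level with GSK-A1 replicate 2 (-0.983548). These 3 ratios had no overlap between groups. With 2 CPM added to each gene before the ratio was taken, the SCD/FASN groups overlapped (exact p = 0.2). ACLY relative to ACSS2 (0.12, exact p = 0.2, adjusted p = 0.25) and FADS1 relative to FADS2 (0.15, exact p = 0.4, adjusted p = 0.4) overlapped between groups. ACLY/ACSS2 was 0.0528 without GSK-A1 replicate 2. FADS1/FADS2 was 0.0620 without DMSO replicate 3. Leaving out GSK-A1 replicate 2 gave it 0.0825, and leaving out replicate 3 of that group gave 0.235.

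**Figure D4:**
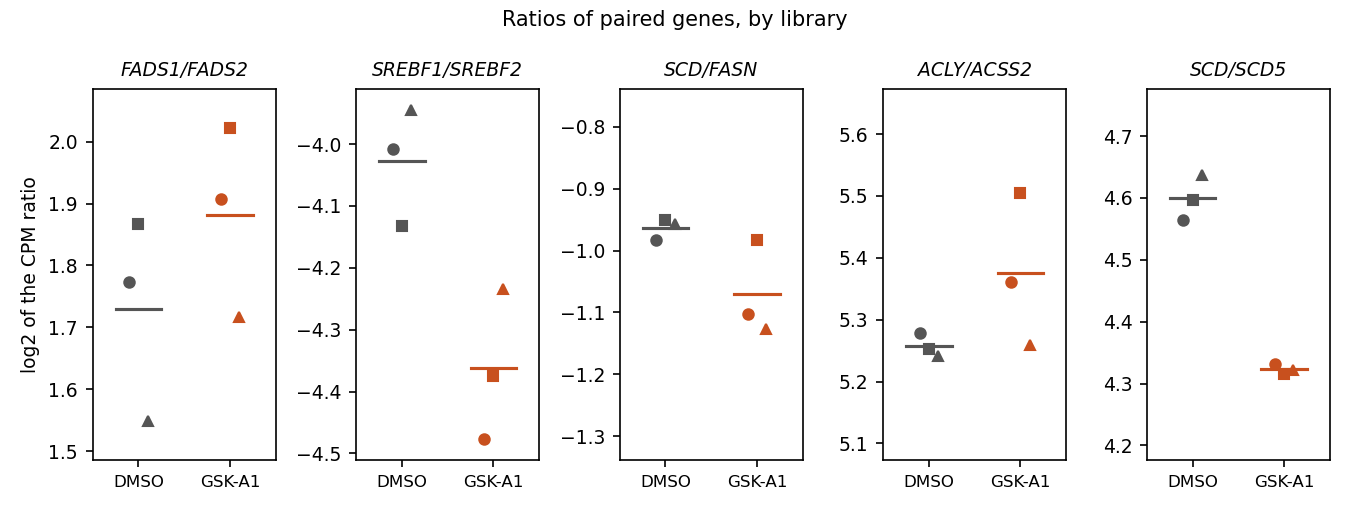
Log2 ratio of CPM for 5 gene pairs in each library. Points are libraries, circles, squares and triangles being replicates 1, 2 and 3, and short lines are means. The vertical range is the same size in each panel. The ratios SREBF1/SREBF2, SCD/FASN and SCD/SCD5 are lower in all GSK-A1 libraries than in all DMSO libraries.

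The wider pathway was described with 9 lists of 149 genes in all, the 10 members among them. Of 138 tested, 54 were called (39.1%, against 22.9% of all genes tested). Without the members, 49 of 129 were called (38.0%). The list shares below include the members. Without them the share was 7.69% for SREBP control and lipogenic transcription factors and 45.5% for the supply of acetyl-CoA, citrate and NADPH. It was 55.6% for acetyl-CoA carboxylase, fatty acid synthase and their regulators, 50% for the elongation cycle and 25% for desaturases and their electron donors. The other lists hold no members. The lists were chosen with earlier results of these data known, so these shares are descriptions, and their excess was not tested. The 22.9% includes genes of low level, and the lists were not matched to it for level. Of the 2094 genes with a mean over 100 CPM under DMSO, 625 were called. The regulators of SREBP and the other lipogenic transcription factors had few calls (14.3%). Of 14 tested, SREBF1 was called lower and NR1H2, which encodes the sterol-sensing receptor LXR beta, was called higher (0.14 ± 0.05, edgeR adjusted p = 0.0369). The median was 0.03, and -0.01 under upper-quartile factors. It was 0.0180 and 0.0174 without DMSO replicates 2 and 3 and 0.00765 without GSK-A1 replicate 1. The NR1H2 call was lost under upper-quartile factors (0.10, edgeR adjusted p = 0.123), with library totals only, under DESeq2, and without any 1 library other than GSK-A1 replicate 2 (edgeR adjusted p up to 0.157 without DMSO replicate 2). The SREBP escort SCAP, the retention proteins INSIG1 and INSIG2 and the proteases MBTPS1 and MBTPS2 were not called.

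Genes that supply citrate, acetyl-CoA and NADPH were called in 1 direction. Of 13 tested, 7 fell and none rose (53.8% called, against 22.9% of all genes tested), with a median of -0.13. Apart from ACLY and ACSS2 these were led by IDH1, cytosolic isocitrate dehydrogenase, at 72.3, 73.2 and 71.7 CPM with DMSO and at 57.6, 62.4 and 54.9 CPM with GSK-A1 (-0.31 ± 0.05, edgeR adjusted p = 2.24e-04). SLC25A1, the mitochondrial citrate carrier, stood at 332, 340.3 and 322 CPM with DMSO and at 285, 274 and 287 CPM with GSK-A1 (-0.23 ± 0.04, edgeR adjusted p = 2.55e-04). None of the treated libraries of IDH1 or SLC25A1 reached a control. With the GC trend removed, SLC25A1 was at -0.16 and was still called.

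The list of acetyl-CoA carboxylase, fatty acid synthase and their regulators was mixed. Of 11 tested, 4 fell and 2 rose (54.5% called, against 22.9% of all genes tested), with a median of -0.04. Besides FASN, the falls named by rule were in PRKAB1, a subunit of the AMP-activated kinase that inhibits the carboxylases (-0.18 ± 0.05, edgeR adjusted p = 0.0133), STK11, which activates that kinase (-0.14 ± 0.04, edgeR adjusted p = 0.0166), and ACACB, the mitochondrial carboxylase (-0.21 ± 0.06, edgeR adjusted p = 0.0242). The 6 calls became 3, 1 and 2 without DMSO replicates 1, 2 and 3 and 4 without GSK-A1 replicate 1, and the median turned to 0.02 without DMSO replicate 1 or GSK-A1 replicate 1. It was -0.0573 and -0.109 without GSK-A1 replicates 2 and 3. STK11 was not called after removal of the GC trend (-0.06, edgeR adjusted p = 0.124).

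The elongation cycle went the other way in its calls. Of 11 tested, 5 rose and none fell (45.5% called, against 22.9% of all genes tested). The median was 0.05, and it was 0.0782 without GSK-A1 replicate 2 and 0.00629 under upper-quartile factors. HACD3, a dehydratase of the cycle, stood at 325, 339 and 340.1 CPM with DMSO and at 377, 384 and 372 CPM with GSK-A1, with no overlap (0.18 ± 0.03, edgeR adjusted p = 0.00170). HACD2, its paralog, rose by 0.17 ± 0.04 (edgeR adjusted p = 0.00972) and ELOVL4, an elongase of very long chains, by 0.19 ± 0.06 (edgeR adjusted p = 0.0240). The 5 calls became 2 without any 1 DMSO library, 3 without GSK-A1 replicate 1 and 3 under upper-quartile factors. HACD2 was not called without DMSO replicate 1 (edgeR adjusted p = 0.0671). ELOVL4 was not called without DMSO replicate 2 or 3 (0.101 and 0.105) or under upper-quartile factors (0.0515).

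Among desaturases and their electron donors, 1 fell (SCD) and 2 rose of 11 tested (27.3% called, near the 22.9% of all genes tested). The median was 0.01, and it was -0.03 under upper-quartile factors. That median ran from -0.00221 without DMSO replicate 2 to 0.0399 without DMSO replicate 3, and moved by over 1.5 times without each of the 6 libraries. FADS3, the neighbour of FADS1 and FADS2, stood at 16.1, 15.8 and 16.1 CPM with DMSO and at 21.5, 18.01 and 23.2 CPM with GSK-A1 (0.39 ± 0.08, edgeR adjusted p = 0.00219). All treated libraries lay above the controls, and GSK-A1 replicate 2 was the lowest of them. CYB5R4, a cytochrome b5 reductase, stood at 46.8, 47.2 and 46.2 CPM with DMSO and at 53.00, 59.5 and 53.3 CPM with GSK-A1 (0.24 ± 0.05, edgeR adjusted p = 0.00250). The 3 calls became 5 with the GC trend removed.

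Downstream use of fatty acids was also read. In acyl-CoA ligation, esterification and lipid droplets, 4 of 20 tested fell and 2 rose (median -0.05). That was 30% called, against 22.9% of all genes tested. Without GSK-A1 replicates 1, 2 and 3 in turn the median was -0.0232, -0.0262 and -0.0131. DGAT2, which completes triglycerides, stood at 5.51, 6.64 and 5.43 CPM with DMSO and at 3.88, 4.39 and 3.77 CPM with GSK-A1 (-0.56 ± 0.11, edgeR adjusted p = 0.00156). AGPAT1, an acyltransferase of phosphatidic acid synthesis, fell (-0.20 ± 0.04, edgeR adjusted p = 0.00142), and GPAT3, the acyltransferase of the step before it, rose (0.32 ± 0.06, edgeR adjusted p = 0.00131). The 6 calls became 10 without GSK-A1 replicate 2, and 3 without DMSO replicate 3.

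In fatty acid oxidation, 8 of 26 tested fell and 1 rose (median -0.09). That was 34.6% called, against 22.9% of all genes tested. EHHADH, a bifunctional enzyme of peroxisomes, changed by -0.44 ± 0.09 (edgeR adjusted p = 0.00167), ACADSB, a short and branched chain dehydrogenase, by -0.26 ± 0.04 (edgeR adjusted p = 4.12e-04) and ECHS1, mitochondrial enoyl-CoA hydratase, by -0.23 ± 0.04 (edgeR adjusted p = 3.47e-04). The 9 calls became 14 without GSK-A1 replicate 2, and 5 and 6 without DMSO replicates 1 and 3. The mitochondrial fatty acid synthesis list, 9 genes tested, had 1 call (11.1%, and 2 calls without GSK-A1 replicate 2). It was lower, in MECR (-0.19 ± 0.06, edgeR adjusted p = 0.0217), and the list median was -0.11. That call was lost without DMSO replicate 2 or 3 or GSK-A1 replicate 3 (edgeR adjusted p 0.118, 0.0935 and 0.0863), and the median was -0.03 without DMSO replicate 2. Leaving out GSK-A1 replicate 1 gave a median of -0.0525.

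The cholesterol list, whose genes answer mainly to SREBP-2, is given for comparison. Of 23 tested, 15 fell and none rose, 65.2%, with a median of -0.19. NSDHL (-0.45 ± 0.04, edgeR adjusted p = 4.75e-06), LSS (-0.40 ± 0.05, edgeR adjusted p = 5.13e-05) and TM7SF2 (-0.47 ± 0.07, edgeR adjusted p = 3.17e-04), all enzymes after squalene, led it. The difference between this list and the others was not tested.

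**Figure D5:**
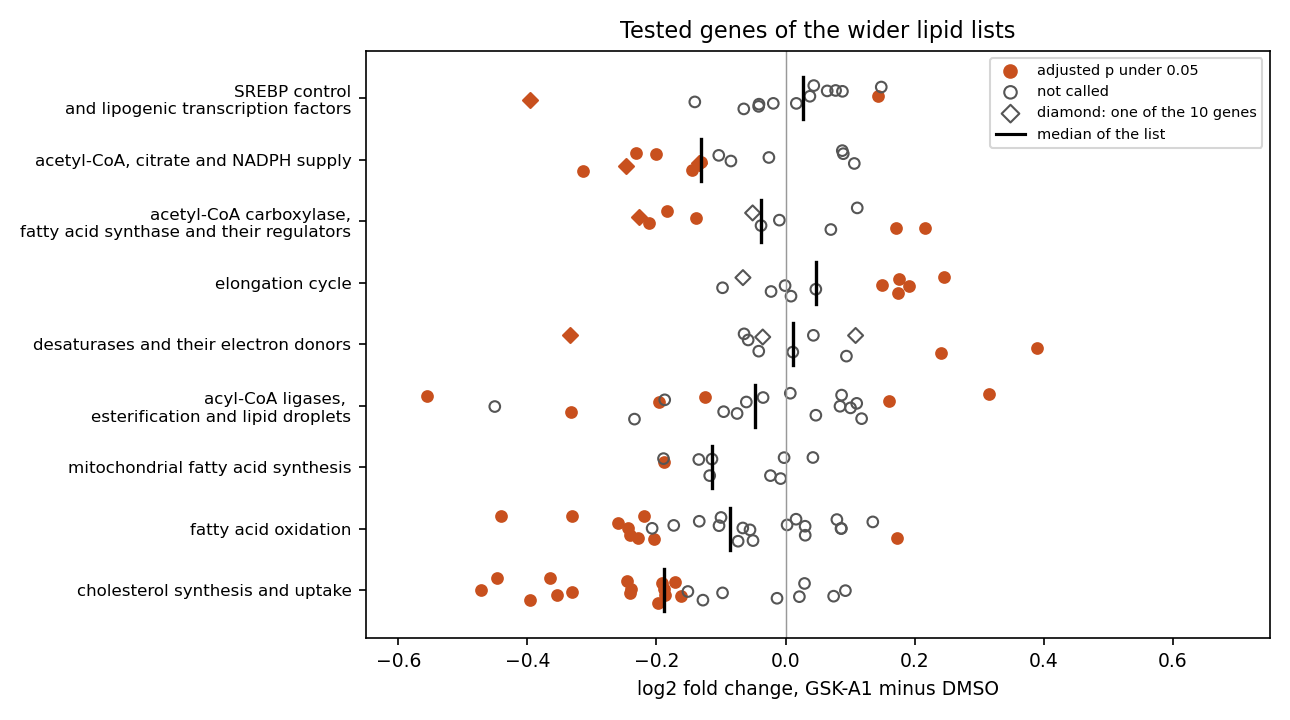
Log2 fold change (GSK-A1 minus DMSO) of every tested gene of the 9 lists, 1 point per gene with vertical scatter for legibility. Orange points passed an adjusted p of 0.05, diamonds are the 10 genes described here where tested, and black lines are list medians. Calls lie to the left in the supply and cholesterol lists and to the right in the elongation cycle.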

How the data were processed

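RNA sequencing counts from 3 DMSO and 3 GSK-A1 libraries were used. The authors deposited raw counts per gene as whole numbers, 1 column per library, with no normalization. Per the labels' protocols, libraries were made with a stranded Illumina kit. Per the submitters' processing notes, cutadapt 5.1, STAR 2.7.11b, featureCounts, Subread 2.1.1 and DESeq2 1.38.0 were used with the build GRCh38.p13; the annotation release and strand setting are not given in the sources used here. All libraries carry the same lane label.

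Totals ranged from 33040178 to 47777233 counts. Genes passing filterByExpr (smallest count 10, smallest total 15) were tested with edgeR 4.0.16 in R 4.3.3 (TMM factors, robust quasi-likelihood F test, legacy off). P-values were adjusted by Benjamini-Hochberg over all 16754 genes, and 0.05 was the threshold. CPM used TMM-adjusted totals. SE is the unshrunken log2 coefficient over the square root of F. P-values measure the spread between libraries labelled as biological replicates. The code was tested on simulated data. The alternatives were other factors and filters, DESeq2 1.42.0, limma-voom (limma 3.58.1), a replicate block, an adjusted p under 0.01 and leaving out each library. Removal of a loess GC trend (span 0.3) was added after seeing the data.

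The members and lists were chosen with earlier results of these data known. Named genes were all members, up to 3 called non-members per list with the smallest p, the second gene of each ratio, and the 3 genes of at least 10 CPM nearest to SCD in profile. The motifs were chosen after the windows had been seen. A gene that this rule names in the supply list is not reported here.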

Additional observations from a re-analysis of the deposited data

How the results depend on the processing

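The count of 5 members called was the same in all 16 alternatives but 1: it was 6 with the GC trend removed, where ELOVL6 was added. Of 144 member values under alternatives, 140 kept their direction and their side of the threshold. FADS2 turned to 0.0175 with the GC trend removed, to 0.0503 when DMSO replicate 3 was left out and to 0.0037 when GSK-A1 replicate 2 was left out, in a range of -0.0866 to 0.0503 over the fits that leave out 1 library. The cause was not tested. Over the alternatives SCD ranged from -0.37 to -0.32, FASN from -0.27 to -0.15, SREBF1 from -0.47 to -0.32, ACLY from -0.18 to -0.11 and ACSS2 from -0.29 to -0.19, with adjusted p of at most 0.0427. At an adjusted p under 0.01, fewer genes passed: 1871 over all genes against 3835, and 34 of the wider lists against 54. Leaving out 1 library gave 2163 to 4890 genes called, 37 to 71 calls in the wider lists and 5 members. Under upper-quartile factors 33.3% of calls were higher, against 52.3%. With the replicate block 4127 genes, 5 members and 58 genes of the wider lists were called. The labels do not say what a replicate number marks, so the numbers were not taken as pairs. After centring within groups, same-numbered libraries correlated at 0.0109, 0.0190 and 0.0323 across genes. The other combinations lay between -0.0331 and 0.0117. Centring within so few libraries constrains these values, so they cannot decide whether the libraries were paired. No ratio changed sign under its alternatives. The SCD/FASN groups overlapped with 2 CPM added to each gene. ACLY/ACSS2 and FADS1/FADS2 fell to as low as 0.0528 and 0.0620 when 1 library was left out. The depth of FADS2, 210 to 302 reads per library, limits its precision.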

Other observations

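Of 9824 genes with at least 10 CPM, those whose log2 CPM over the 6 libraries lay nearest to SCD after centring were THEM4, OMA1 and LAMA4. The likeness is a description over 6 libraries. THEM4, an acyl-CoA thioesterase, stood at 27.4, 28.8 and 28.3 CPM with DMSO and at 22.9, 22.8 and 21.9 CPM with GSK-A1 (log2 fold change -0.32 ± 0.05, edgeR adjusted p = 3.59e-04). OMA1, a protease of the inner mitochondrial membrane, changed by -0.30 ± 0.06 (edgeR adjusted p = 0.00326) and LAMA4, a laminin chain, by -0.33 ± 0.04 (edgeR adjusted p = 3.53e-05).

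At the FADS gene cluster, FADS3 was the gene called among 6 neighbours read after its value was seen. FEN1 (-0.04 ± 0.04, edgeR adjusted p = 0.442), TMEM258 (-0.09 ± 0.05, edgeR adjusted p = 0.184) and MYRF (-0.05 ± 0.10, edgeR adjusted p = 0.772) were not called, nor were FADS1 and FADS2. Their difference from FADS3 was not tested.

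The 10 genes together took 0.410% to 0.418% of the counts in DMSO libraries and 0.350% to 0.355% in GSK-A1 libraries, most of it from FASN, SCD and ACLY.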
